A study of Mus musculus with 12 samples.

Results

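The first step of muscle differentiation in culture is described here: the state of C2C12 cells 2 days after the switch to differentiation medium, set against the same line while it was still dividing. C2C12 is an established mouse myoblast line. The comparison takes 6 of the 12 arrays of the series, chosen by their labels alone: the 3 labelled as proliferating and the 3 labelled as differentiated for 2 days. The proliferating cultures were kept in DMEM with 10% fetal bovine serum and taken to 80-90% confluence. The day 2 cultures had been moved from there to DMEM with 2% horse serum. The remaining arrays are from day 5 and day 8 in horse serum. No genotype, transgene or other agent separates the groups, and every sample is the 1 cell line, so the cultures stand for that line and not for primary muscle. Each stage was run as 3 independent experiments per the series' design text, which does not say how their cultures were kept apart, so a p-value here covers only array-to-array spread, which may be technical.

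Myoblasts divide as single cells while mitogens are plentiful. When serum is lowered at high density, they leave the cell cycle, switch on myogenin, and then build the contractile apparatus and fuse into multinucleated myotubes. Proteins of the Id family hold the myogenic basic helix-loop-helix factors in check during growth by taking away their partner proteins, and those factors act through short DNA motifs called E-boxes. Serum also carries lipids and growth factors. Between these stages the kind and amount of serum and the time in culture changed together. Their parts in any change cannot be told apart and were not tested. C2C12 cultures at this early time are known to hold a mixture of committed and still uncommitted cells. In such bulk RNA, fewer cells of a type and less RNA per cell cannot be told apart.

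On the 6 arrays, 58.1% to 68.6% of spots were well above background, the 75th percentile of the signal was 1450 to 1993 scanner units, and 0 spots were saturated. Over all tested probes, log2 signals correlated at 0.986 to 0.993 within a stage, and at 0.966 to 0.980 for pairs drawn from both stages. All 3 proliferation arrays and day 2 array 1 lay on 1 slide, and day 2 arrays 2 and 3 lay on another. With the slide as a block in the fit, the day 2 change of a probe equals the difference between day 2 array 1 and the mean of the 3 proliferation arrays, so that value rests on 1 day 2 array. Negative-control probes, which should bind nothing, had median signals of 6.25, 5.39 and 2.42 on the proliferation arrays and of 3.53, 1.78 and 1.97 at day 2, so falls that end near background move with this floor and its part in them was not tested. Of the 5 myoblast markers, Myod1, Myf5, Des, Cdh15 and Itga7, all were well above background on the 6 arrays.

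A broad change was in place at day 2. Of 22010 probes tested, 7057 changed (32.1% of those tested, limma with Benjamini-Hochberg adjusted p under 0.05): 4215 rose (19.2%) and 2842 fell (12.9%). Counted over gene symbols, 4518 of 13314 changed (33.9%), of which 2808 rose (21.1%) and 1710 fell (12.8%). The share of higher calls depended on the scaling: 59.7% of the called probes were higher, 72.2% after normexp background correction and 49.7% when the percentile was taken over probes above background on all 12 arrays. Most changes were of moderate size, with 1311 probes at least 2-fold higher and 1112 at least 2-fold lower, 188 and 108 past 4-fold, and 26 and 10 past 8-fold. With the slide as a block 2332 genes changed (17.5%), 1489 of them higher (11.2%) and 843 lower (6.33%). The median log2 change over all tested genes was 0.099, and 0.11 with the slide as a block. Below, signals are scanner units scaled to the same 75th percentile on every array and listed as array 1, 2 and 3, changes are log2 differences of day 2 minus proliferation with the standard error of the limma fit (n = 3 arrays per stage), and p-values are limma's, adjusted over all tested probes.

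**Figure D1:**
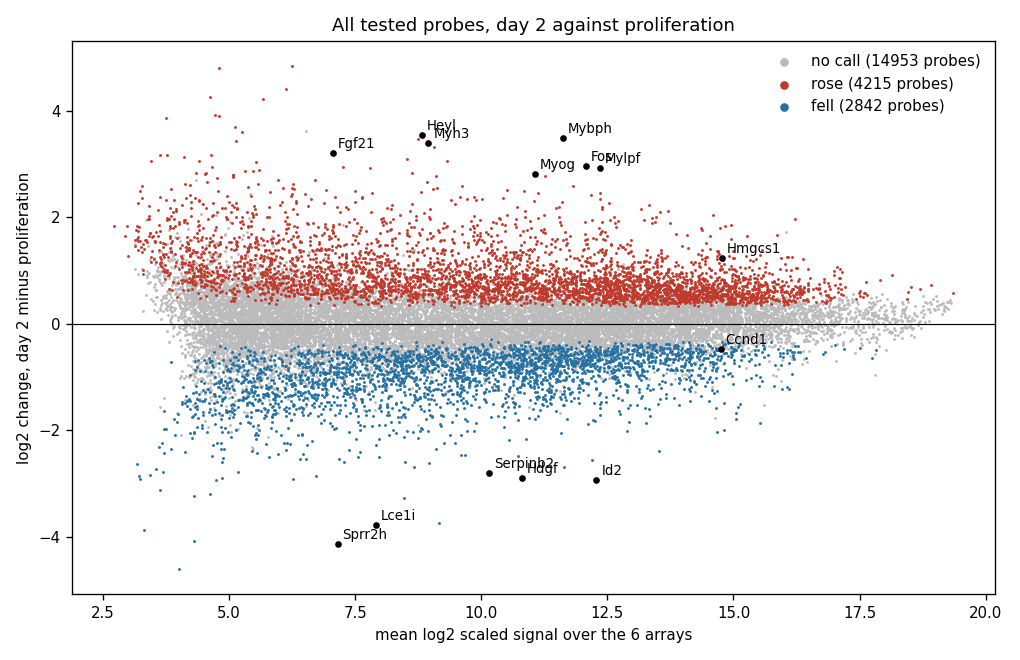
Log2 change at day 2 (vertical axis) against mean log2 scaled signal over the 6 arrays (horizontal axis) for the 22010 tested probes. Red probes rose (4215), blue probes fell (2842) and grey probes had no call; muscle genes such as Mybph and Mylpf lie at the upper edge across a wide range of signal, and Id2 and Sprr2h at the lower edge.

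The myosin-based thick filament was the gene group with the highest median change among the 37 lists that hold no cell type markers. Of its 13 tested members (24 on the list), 10 rose and 0 fell, beside 21.1% and 12.8% of all tested genes, with a median change of 1.64 (1.81 with the slide as a block, where 10 rose). The thin filament, built of actin, tropomyosin and troponin, had 11 rises and 0 falls among 17, with a median of 1.57 (1.53 with the block, where 11 rose). At the Z-disc and M-band, which anchor the filaments, 17 of 23 rose and 0 fell, with a median of 0.89 (1.17 with the block, where 8 rose and 1 fell).

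Mybph encodes a myosin-binding protein that is strongly expressed in developing fibres. Its signal was 845, 1019 and 958 in proliferation and 11429, 13824 and 7283 at day 2, a change of 3.48 ± 0.21 (adjusted p = 7.1e-06). The lowest day 2 array stood far above the highest proliferation array. Myh3, the myosin heavy chain of embryonic muscle, went from 175, 158 and 129 to 1420, 2235 and 1310 (3.40 ± 0.21, adjusted p = 8.2e-06). For the fast light chain Mylpf the signal was 1501, 2379 and 1932 in proliferation and 16220, 15830 and 11620 at day 2 (2.92 ± 0.21). The array ranges of both stages stood apart for these genes, as they did for 49.5% of all tested genes. Day 2 array 3 was the lowest of its stage for all 3 of them.

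Troponin, the calcium switch of the thin filament, came up in slow and fast forms together. The slow inhibitory subunit Tnni1 had signals of 1938, 2563 and 2279 and then 11635, 15766 and 10203 (2.46 ± 0.20), and the fast subunit Tnni2 had 183, 217 and 174 and then 891, 1379 and 954 (2.47 ± 0.26). The fast calcium-binding subunit Tnnc2 rose by 2.77 ± 0.27 and the fast tropomyosin-binding subunit Tnnt3 by 2.49 ± 0.26. Tnnt2, the cardiac and embryonic form, had overlapping ranges (3425, 4860 and 7012 against 4478, 5529 and 3242) and no call (-0.18 ± 0.36). The median over its probes was called lower (limma, adjusted p = 0.0099). Cardiac actin Actc1, which is the fetal form in skeletal muscle, rose from 909, 795 and 1201 to 5003, 6570 and 3145 (2.30 ± 0.25). Skeletal actin Acta1 rose by 0.97 ± 0.22 from a signal already at 34239, 30774 and 43938. Tpm1, an alpha-tropomyosin, had no call at -0.72 ± 0.29, with day 2 array 1 at 113824 and arrays 2 and 3 at 53663 and 56532; it was called lower without array 1 (adjusted p = 0.0099) and with quantile normalization (0.025).

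E-boxes of the letters CAGCTG are a preferred site of myogenin and MyoD, and MEF2 factors bind an A/T-rich consensus. Both were searched on both strands of the 250 bases before each RefSeq transcription start (build GRCm38.p6), a window that 10594 of the 13314 tested genes had. An E-box CAGCTG was present for 14.6% of these genes, for 18.9% of those that rose and for 11.8% of those that fell, and in 13.0% of all 32851 windows of that length. Of 45 tested sarcomere genes with a window, 20 (44.4%) held it; among the 31 that rose it was 13 (41.9%). The MEF2 consensus was present for 2.16% of tested genes and for 8 of the 45 sarcomere genes (17.8%). Each motif was counted separately, and a match is a description of the letters only. 3 windows are shown because their genes rose and carry the motifs, with the matched letters in capitals, 5′ to 3′ on the strand of the gene: Mybph at chr1:134193198-134193447 (+), Klhl41, which encodes a Z-disc associated kelch protein, at chr2:69669870-69670119 (+), and Chrng, the fetal acetylcholine receptor subunit gene, at chr1:87205561-87205810 (+).
Mybph: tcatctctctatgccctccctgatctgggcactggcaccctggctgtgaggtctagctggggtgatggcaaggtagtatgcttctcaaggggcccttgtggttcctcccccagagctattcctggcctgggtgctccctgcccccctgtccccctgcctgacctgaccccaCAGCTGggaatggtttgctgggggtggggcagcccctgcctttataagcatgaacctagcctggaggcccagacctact
Klhl41: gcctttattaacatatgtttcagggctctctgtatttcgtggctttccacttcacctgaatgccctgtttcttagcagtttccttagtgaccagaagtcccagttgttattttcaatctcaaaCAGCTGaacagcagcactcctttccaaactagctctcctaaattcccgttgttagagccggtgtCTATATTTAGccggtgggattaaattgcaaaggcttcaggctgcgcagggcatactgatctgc
Chrng: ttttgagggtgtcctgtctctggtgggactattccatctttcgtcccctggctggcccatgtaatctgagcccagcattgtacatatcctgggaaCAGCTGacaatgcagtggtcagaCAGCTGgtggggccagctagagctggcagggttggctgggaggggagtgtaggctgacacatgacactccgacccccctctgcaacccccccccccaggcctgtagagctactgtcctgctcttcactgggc
In Mybph the E-box starts 79 bases before the transcription start. In Klhl41 the E-box starts 127 and the MEF2 match 63 bases before it, and in Chrng the E-boxes start 155 and 132 bases before it. Klhl41 went from 187, 210 and 187 to 526, 651 and 417 (1.43 ± 0.17), with all day 2 arrays above all proliferation arrays.

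Of 17 tested calcium handling genes, 9 rose and 0 fell (median 0.73; 0.89 and 7 rises with the slide as a block), and of 11 neuromuscular junction genes, 5 rose and 0 fell (median 0.57; 0.58 and 4 rises with the block). Hrc, which buffers calcium in the sarcoplasmic reticulum, had signals of 74.5, 51.8 and 55.9 and then 314, 359 and 268 (2.38 ± 0.18). Srl, a further luminal protein of that store, rose by 1.99 ± 0.22, the calsequestrin gene Casq2 by 1.67 ± 0.19 and the release channel gene Ryr1 by 1.52 ± 0.18. Chrng, whose promoter is shown above, went from 526, 712 and 591 to 3224, 4045 and 2327 (2.37 ± 0.20). Its partner subunit gene Chrna1 rose by 0.80 ± 0.19 from 14266, 20615 and 24257, a call that ended with the slide blocked (adjusted p = 0.073). Lrp4, the agrin receptor of muscle, rose from 3973, 4512 and 5101 to 14666, 12922 and 10947 (1.50 ± 0.15).

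Among 24 tested genes of muscle energy metabolism 9 rose and 3 fell, with a median of 0.13, close to that of all genes. Cox8b, a muscle form of a cytochrome oxidase subunit, went from 307, 449 and 474 to 2640, 1795 and 1988 (2.39 ± 0.19). The glycogen phosphorylase gene Pygm rose by 1.83 ± 0.21 and myoglobin (Mb) by 2.00 ± 0.41. Mb and the creatine kinase gene Ckm (2.80 ± 0.23) were well above background on 1 of 3 proliferation arrays, so their folds start near the floor. Pdk4, which restrains pyruvate use, fell from 11937, 10322 and 11113 to 5166, 6101 and 5832, by 0.97 ± 0.14.

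Genes of adhesion and fusion were mixed, with 9 rises and 6 falls among 29 tested (median 0.33; 4 and 4 with the slide as a block). Mymk, which encodes the fusogen myomaker, went from 372, 410 and 465 to 1165, 1508 and 957 (1.52 ± 0.18). Elmo1, an adaptor of the Rac exchange factors used in fusion, rose by 1.86 ± 0.15. The metalloprotease gene Adam12 fell from 1908, 1092 and 1068 to 340, 432 and 426, by 1.72 ± 0.27. M-cadherin (Cdh15) was at 51368, 55561 and 69089 and then at 107893, 65157 and 70872, with overlapping ranges and no call (0.45 ± 0.22). With the slide as a block, which rests on day 2 array 1, the Cdh15 change was 0.89.

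Of 21 tested myogenic transcription factors and cofactors, 6 rose (28.6%) and 2 fell (9.52%), beside 21.1% and 12.8% of all tested genes. The median of 0.01 was below that of all genes (0.26 with the slide as a block). Myog went from 684, 1031 and 734 to 5151, 8144 and 4335 (2.82 ± 0.24, adjusted p = 2.6e-05), with every day 2 array above every proliferation array. Csrp3, a LIM protein of the Z-disc that acts as a MyoD cofactor, rose by 1.67 ± 0.21. Myf5 and Myod1, the determination factor genes, did not rise. Myf5 was at 26712, 24425 and 24591 and then at 21009, 25015 and 27209 (-0.06 ± 0.15, no call). Myod1 was at 80296, 105363 and 110733 and then at 73492, 67246 and 63646 (-0.52 ± 0.17, adjusted p = 0.034). That fall lost its call with the slide blocked (adjusted p = 0.28), with normexp (0.26), and when proliferation array 2 (0.10) or 3 (0.10) or day 2 array 2 (0.082) or 3 (0.096) was left out. Mef2c was at 57.5, 43.6 and 49.0 and then at 31.6, 40.6 and 32.6 (-0.52 ± 0.22, no call), without overlap of the ranges. Pax7, the satellite cell factor, rose from 55.0, 52.6 and 54.2 to 85.7, 78.2 and 74.97 (0.56 ± 0.16), a call that ended with the slide blocked (adjusted p = 0.080) and when proliferation array 1 (0.051) or 2 (0.066) was left out, or day 2 array 1 (0.071) or 2 (0.054).

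Id1, Id2 and Id3 fell, and several Notch pathway genes rose. Id2 went from 13135, 15053 and 13250 to 1692, 1685 and 2032, a fall by 2.94 ± 0.17 (adjusted p = 7.1e-06), and the proliferation arrays were all more than 6-fold above the day 2 arrays. Id1 (44079, 64727 and 64849 against 15758, 12932 and 14522) fell by 1.99 ± 0.19 and Id3 (72448, 96272 and 102944 against 28475, 23056 and 22735) by 1.86 ± 0.17. Id4 had no call (0.13). Heyl, a repressor induced by Notch, rose from 151, 176 and 88.3 to 1975, 1309 and 1437 (3.54 ± 0.25). The ligand gene Dll1 rose from 464, 744 and 663 to 3635, 3503 and 3367 (2.52 ± 0.20), and the receptor gene Notch3 from 5908, 7094 and 6203 to 29515, 30678 and 23657 (2.12 ± 0.16). Hes1, a further target repressor, rose by 0.48 ± 0.13, which ended with the slide blocked (adjusted p = 0.11), with quantile normalization (0.066) and without day 2 array 2 (0.0575). Over the whole list of inhibitors and Notch genes 10 of 25 rose and 4 fell.

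**Figure D2:**
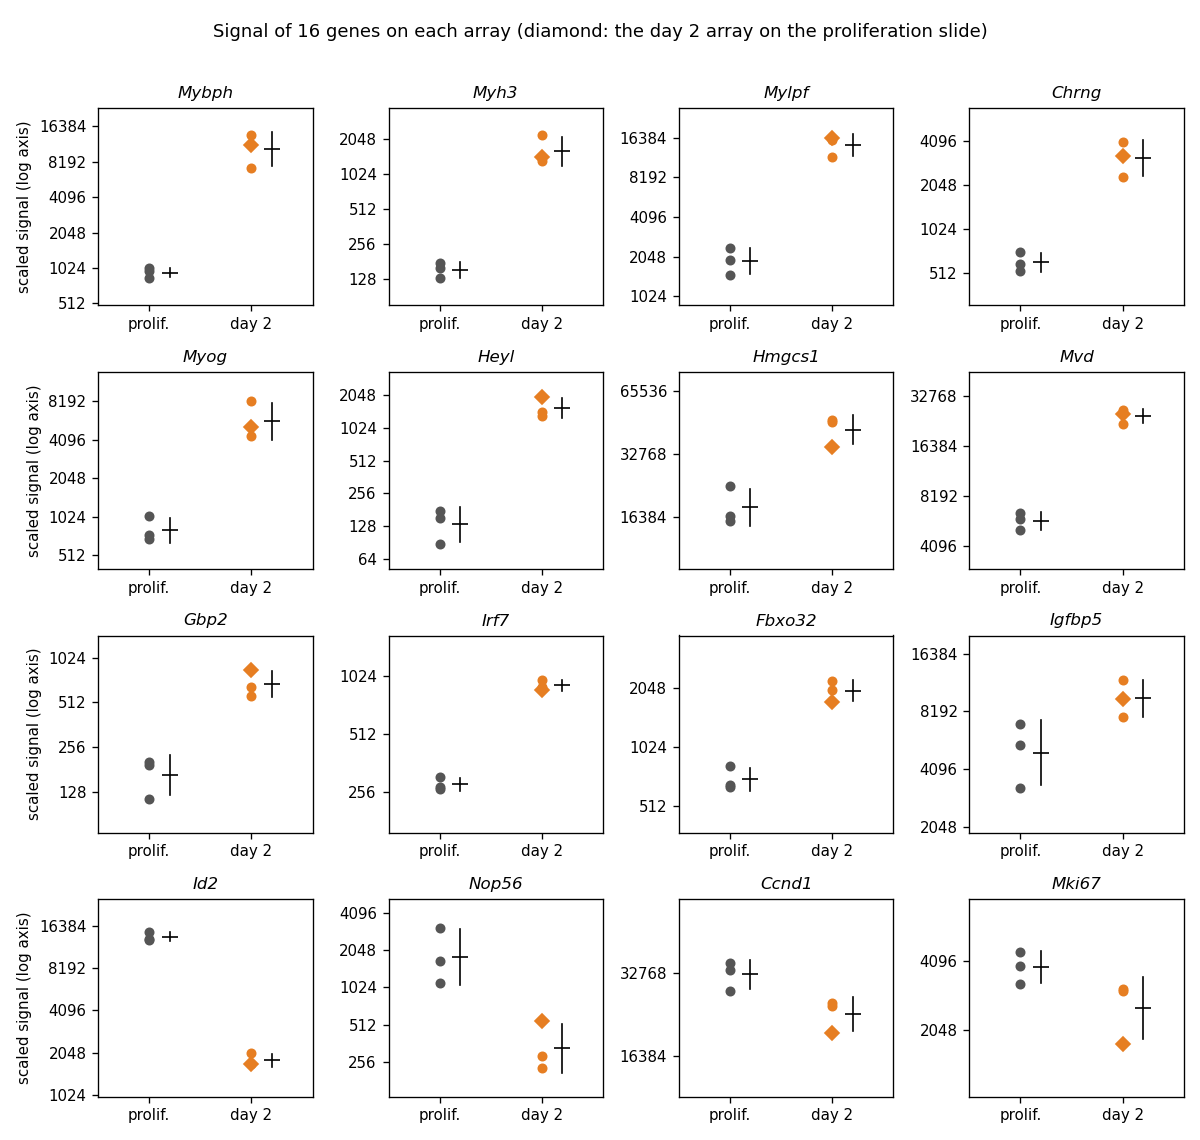
Scaled signal on each of the 6 arrays for 16 genes, on log axes that differ between panels and do not start at 0. Points are arrays, the diamond is day 2 array 1, which shares the proliferation slide, and black bars give the mean ± SD of the log2 signal (n = 3); the ranges of the stages do not overlap in any panel, and come closest in Mki67 (3246 against 3082), which has no call.

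Sterol and fatty acid synthesis had the highest share of rising members. Cells make cholesterol from acetyl-CoA through the mevalonate pathway, and the SREBP transcription factors raise its enzymes when membrane sterol is low. Of 36 tested genes (37 on the list), 32 rose and 0 fell, with a median of 1.14. With the slide as a block 26 rose (median 1.00), and between 28 and 31 rose when any 1 of the 6 arrays was left out. The list median on the day 2 arrays was 1.00, 1.17 and 1.26 above the proliferation mean, against -0.01, 0.02 and 0.02 on the proliferation arrays. Without spots marked non-uniform by the scanner software, which leaves 7307 genes tested in place of 13314, 9 rose and 0 fell (median 1.29).

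Enzymes of early and late steps of the pathway rose. Hmgcs1, the synthase that makes HMG-CoA, went from 23155, 15810 and 16668 to 35639, 47737 and 46615 (1.23 ± 0.20). Proliferation array 1 was the highest of its stage, and the ranges did not meet. Further along, the decarboxylase gene Mvd rose from 5093, 5971 and 6450 to 25375, 26900 and 22272 (2.09 ± 0.13, adjusted p = 7.4e-06) and squalene epoxidase (Sqle) from 71472, 71389 and 67092 to 125441, 115382 and 118241 (0.77 ± 0.13). Tm7sf2, a sterol reductase late in the pathway, rose from 1800, 2590 and 3482 to 11718, 10889 and 11959 (2.18 ± 0.22). Fatty acid synthase (Fasn) rose by 1.56 ± 0.16.

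Regulators and a transporter were among them. Insig1, the sterol-sensing retention factor and itself an SREBP target, rose from 14208, 15765 and 14008 to 49176, 51722 and 51807 (1.80 ± 0.17). Srebf1 rose by 1.51 ± 0.12, while Srebf2, which encodes the form tied most to cholesterol synthesis, was at 1775, 2526 and 1308 and then at 1962, 1687 and 2525, with overlapping ranges and no call (0.17 ± 0.26). The cholesterol exporter gene Abca1, usually raised when sterol is high, also rose (201, 307 and 254 against 1064, 980 and 960; 2.00 ± 0.19). The 4 tested genes without a call were Msmo1, Idi1, Srebf2 and Elovl6.

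The sterol regulatory element in the form TCACNCCAC was searched on both strands of the same windows. It was found for 1.22% of tested genes and for 1 of the 25 tested sterol and fatty acid genes with a window, Hmgcs1. That window, at chr13:119690101-119690350 (+), is shown with the match in capitals, which starts 137 bases before the transcription start. The CCAAT box, a common promoter motif bound by NF-Y, was searched as CCAAT on both strands: 19 of the same 25 genes (76.0%) held it, beside 40.6% of tested genes and 14 of 19 tested MHC class I presentation genes (73.7%).
Hmgcs1: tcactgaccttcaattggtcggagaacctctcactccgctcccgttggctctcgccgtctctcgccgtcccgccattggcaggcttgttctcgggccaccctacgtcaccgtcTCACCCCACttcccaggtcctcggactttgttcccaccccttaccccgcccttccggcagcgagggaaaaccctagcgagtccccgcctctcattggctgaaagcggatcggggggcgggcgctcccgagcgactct

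Many genes that build ribosomes fell, and none of those tested rose. Of 38 tested ribosome biogenesis genes (40 on the list) 21 fell and 0 rose, with a median change of -0.62 (-0.75 with the slide as a block, where 18 fell). The day 2 arrays had list medians of -0.75, -0.59 and -0.49, below all 3 proliferation arrays (-0.09, 0.00 and 0.10). Between 15 and 21 members fell when 1 array was left out, and 6 fell without non-uniform spots. Npm1, nucleophosmin, which carries ribosomal subunits out of the nucleolus, went from 51379, 49793 and 43138 to 14451, 19715 and 17630, a fall by 1.49 ± 0.16. Nop56 and Nop58, which form the core of box C/D particles that guide rRNA methylation, fell by 2.46 ± 0.41 and 2.44 ± 0.38. Nop56 was uneven within stages, at 3134, 1688 and 1123 and then at 549, 286 and 226, yet the ranges stood apart. Ncl, nucleolin, fell by 1.71 ± 0.21 on a probe of low signal (103, 80.8 and 105 against 31.4, 27.2 and 29.0), a call lost with normexp (adjusted p = 0.076). Fbl, the methyltransferase of the same particles, was at 13451, 19159 and 21708 and then at 21203, 16653 and 16928 (0.03 ± 0.20, no call), and Polr1a, the catalytic subunit of RNA polymerase I, had no call either (-0.09 ± 0.12).

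**Figure D3:**
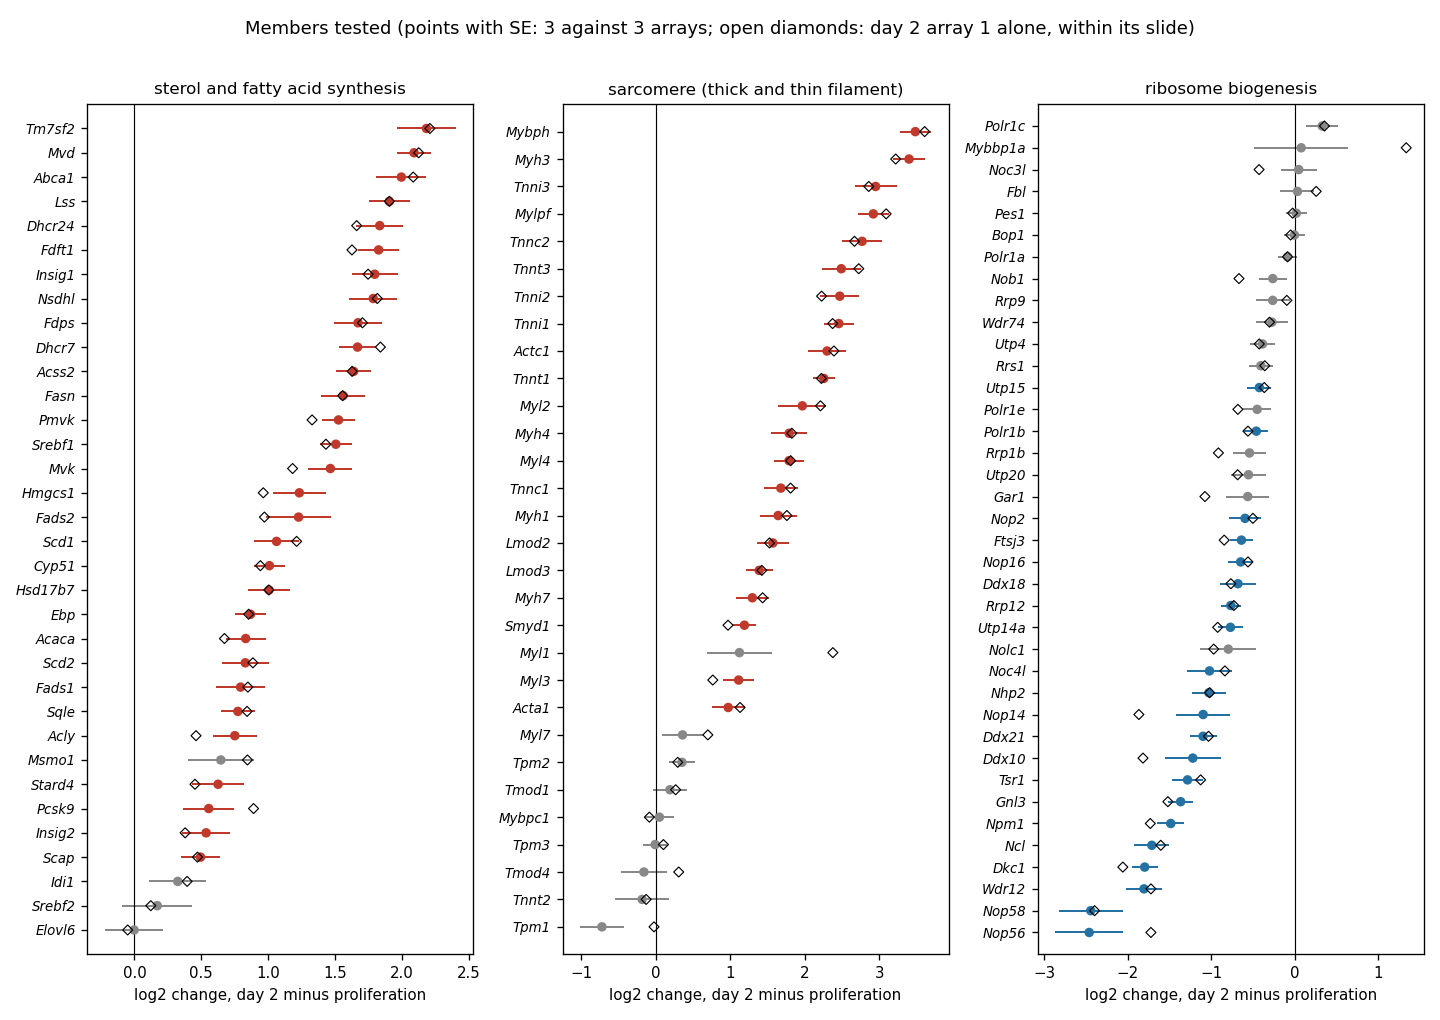
Log2 change at day 2 for tested members of 3 groups; points with bars are the 3-against-3 change ± SE, red where the gene rose, blue where it fell and grey without a call, and open diamonds are day 2 array 1 minus the proliferation mean within their shared slide. In the sterol panel most points are red and none is blue, in the ribosome biogenesis panel 21 of 38 are blue, and the diamonds lie on the same side of 0 as the points for all called genes shown.

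Myc, a transcription factor that drives ribosome genes and growth, fell from 7163, 8945 and 10480 to 4106, 3757 and 5408, by 1.00 ± 0.22 (adjusted p = 0.0060). Among splicing factors that shape muscle transcripts, 7 of 19 fell and 2 rose, with a median of -0.37 (5 and 1 with the slide as a block). The SR protein genes Srsf1 (5025, 4409 and 3889 against 1696, 1870 and 1725) and Srsf3 (2692, 2485 and 2901 against 1088, 1334 and 1216) fell by 1.33 ± 0.15 and 1.15 ± 0.14. Rbm24, a muscle splicing regulator, went the other way, from 190, 187 and 180 to 882, 735 and 818 (2.13 ± 0.13, adjusted p = 7.1e-06). The chaperonin gene Hspd1 fell from 65382, 72032 and 71353 to 23019, 33428 and 38248, by 1.17 ± 0.17. Heat shock genes had 3 rises and 3 falls among 17 tested (17.6% each), Hspd1 included, and a median of -0.005 that was 0.16 with normexp. The unfolded protein and amino acid stress responses had 3 rises and 3 falls among 28 tested (10.7% each). Of all tested genes 21.1% rose and 12.8% fell.

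Of 39 tested DNA replication genes 9 fell and 0 rose (median -0.29), of 40 mitosis genes 9 fell and 1 rose (median -0.25), and of 26 genes of G1 and the E2F system 8 fell and 2 rose (median -0.33). With the slide as a block the falls numbered 1, 3 and 5, beside 6.33% of all tested genes, so the first list lay below that share and the second close to it. Ccne2, a G1/S cyclin, went from 556, 429 and 468 to 144, 180 and 168, a fall by 1.56 ± 0.24, with no overlap. The D cyclins split: Ccnd1 (28318, 33589 and 35764 against 19820, 24895 and 25593) fell by 0.48 ± 0.14, and Ccnd3 had no call (0.50 ± 0.24) with overlapping ranges. The Ccnd1 call was lost with normexp (adjusted p = 0.33) and when proliferation array 2 (0.078) or 3 (0.077), or day 2 array 1 (0.092), was left out. Ccnd2 fell by 0.56 ± 0.15, lost when proliferation array 1 (adjusted p = 0.054), day 2 array 1 (0.057) or the non-uniform spots (0.082) were left out.

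Several standard proliferation markers had no call at day 2. Top2a, the mitotic topoisomerase, was at 66201, 65788 and 58676 and then at 48842, 75160 and 65952 (-0.03 ± 0.17), and the sliding clamp Pcna was at 67749, 80418 and 98259 and then at 60674, 55924 and 76099 (-0.35 ± 0.21). Mki67, the proliferation antigen, was at 4480, 3892 and 3246 and then at 1775, 3082 and 3012 (-0.59 ± 0.25, adjusted p = 0.095). Its day 2 array 1 was the lowest. With the slide as a block, where that array alone stands for day 2, the Mki67 change was -1.11. With normexp, which keeps all 3 day 2 arrays, Mki67 was called lower. Pola1, a DNA polymerase alpha subunit, fell by 1.22 ± 0.23 from 2345, 2040 and 2493 to 1138, 776 and 1070, and was not called on the shared slide alone (adjusted p = 0.059). Mcm3, a part of the replicative helicase, was at 26538, 28933 and 35050 and then at 18594, 9423 and 7475, a fall by 1.45 ± 0.29 that was not called with the slide blocked (-0.69, adjusted p = 0.092).

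Of 23 tested cell cycle inhibitor and p53 target genes 6 rose and 1 fell, with a median of 0.21 (4 and 1 with the slide as a block). The shares in the main fit, 26.1% and 4.35%, stood beside 21.1% and 12.8% of all tested genes. Ccng2, a cyclin linked to arrest, went from 1125, 1519 and 1438 to 2402, 3247 and 2554 (1.01 ± 0.15). The p21 gene Cdkn1a went from 1719, 2243 and 2446 to 2918, 2909 and 2916 (0.46 ± 0.15, adjusted p = 0.033). The rise lost its call in the blocked fit (0.18), with normexp (0.21), and without proliferation array 1 or 2 or any 1 of the day 2 arrays (0.0565 to 0.11). The retinoblastoma gene Rb1 rose by 0.47 ± 0.12, lost with the block (0.16) and without non-uniform spots (0.0503), while Cdkn1c, the p57 inhibitor, rose from 39.4, 87.4 and 82.8 to 143, 125 and 156 and was not called with the block (0.082). The p53 ligase gene Mdm2 fell by 0.59 ± 0.14.

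Interferon signals raise a set of antiviral genes and the machinery that loads peptide onto MHC class I. Of 31 tested interferon-response genes (43 on the list) 16 rose and 0 fell, with a median of 0.72 (0.95 with the slide as a block, where 14 rose). Of 23 MHC class I presentation genes 11 rose and 0 fell, with a median of 0.51 (0.65 with the block, where 7 rose). Irf7, a transcription factor that amplifies the interferon response, went from 266, 306 and 271 to 871, 986 and 905 (1.71 ± 0.13, adjusted p = 1.8e-05). The GTPase gene Gbp2 went from 115, 203 and 194 to 849, 564 and 653 (2.04 ± 0.23). Isg15, a ubiquitin-like modifier, rose by 1.60 ± 0.23 from signals of 17.3, 34.0 and 31.7. The class I heavy chain gene H2-K1 went from 16528, 17806 and 17340 to 46380, 43693 and 37789 (1.30 ± 0.13), with all day 2 arrays more than 2-fold above all proliferation arrays. H2 genes are near-identical copies, so their probes may share targets. The light chain B2m had no call (110148, 117752 and 121058 against 133528, 120869 and 156890; 0.23 ± 0.15). The immunoproteasome gene Psmb8 rose by 0.94 ± 0.18, lost with normexp (adjusted p = 0.056), and the transporter gene Tap1 by 0.51 ± 0.16, not called with the slide blocked (0.26) or without any 1 of proliferation arrays 1 and 2 and day 2 arrays 1, 2 and 3 (0.051 to 0.12).

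The interferon element, GAAA, NN and GAAA in direct succession, a paired half-site bound by IRF complexes, was searched on both strands of the promoter windows, where matches may overlap each other. It was found for 3.15% of tested genes, for 12 of the 25 tested interferon-response genes with a window (48.0%) and for 5 of the 12 that rose (41.7%). The window of Gbp2, at chr3:142620413-142620662 (+), is shown as an example of a riser that carries it, with the match on the opposite strand in capitals, starting 59 bases before the transcription start.
Gbp2: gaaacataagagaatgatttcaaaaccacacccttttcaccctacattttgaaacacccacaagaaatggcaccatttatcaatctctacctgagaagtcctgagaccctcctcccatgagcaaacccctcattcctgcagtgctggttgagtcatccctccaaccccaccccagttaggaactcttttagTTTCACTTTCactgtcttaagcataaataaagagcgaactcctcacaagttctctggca

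In the IGF axis, whose ligands drive both myoblast growth and differentiation, 7 of 18 genes rose and 1 fell, with a median of 0.47 (0.30 with the slide as a block, where 4 rose). Igf1 went from 7.08, 7.52 and 16.8 to 142, 157 and 88.1 (3.70 ± 0.31), well above background on 1 of 3 proliferation arrays. Igfbp4, an inhibitory binding protein, went from 1980, 2959 and 2082 to 11025, 15486 and 9525 (2.35 ± 0.23). Igf2, the ligand known to be induced strongly in differentiating C2C12 cells, was at 581, 983 and 653 and then at 804, 1195 and 469, with no call at this time (0.09 ± 0.29). Igfbp5 rose by 0.94 ± 0.28, lost with the block (adjusted p = 0.13), with normexp (0.18) and when proliferation array 1 (0.053) or 3 (0.082) was left out, or day 2 array 1 (0.062) or 2 (0.099). Igfbp7 fell by 1.59 ± 0.37, with day 2 array 1 at 25937 and arrays 2 and 3 at 11166 and 11298, and was not called on the arrays of the shared slide alone (-0.78, adjusted p = 0.22).

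Fgf21, a hormone-like FGF that muscle releases under stress, rose from 56.2, 41.9 and 36.0 to 415, 641 and 253 (3.21 ± 0.31). The hepatocyte growth factor gene Hgf fell from 223, 348 and 211 to 66.9, 57.9 and 80.0, by 1.91 ± 0.21, and the PDGF receptor gene Pdgfrb rose by 1.37 ± 0.23. Over the FGF, HGF and Sprouty list 4 of 18 rose (22.2%) and 5 fell (27.8%), beside 21.1% and 12.8% of all tested genes. The list median was -0.17, and 0.15 with normexp. The ERK feedback genes Spry4 and Dusp6 fell by 0.78 ± 0.19 and 0.87 ± 0.22; Spry4 was lost with normexp (adjusted p = 0.067) and Dusp6 with the slide as a block (0.061).

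In the Wnt list 10 of 26 tested genes rose and 1 fell, with a median of 0.48 (0.39 with the slide as a block, where 7 rose). Lgr5, a receptor of R-spondins, went from 15.2, 16.3 and 15.4 to 59.9, 73.6 and 52.0 (1.97 ± 0.15), again from a level above background on 1 of 3 arrays. Wnt9a rose by 1.49 ± 0.29 and the secreted antagonist gene Sfrp1 by 0.87 ± 0.12. In the TGF-beta, BMP and myostatin list 9 of 38 rose (23.7%) and 6 fell (15.8%). Both shares were close to those of all tested genes (21.1% and 12.8%). The list median was -0.02, and 0.08 with normexp. Bmp4 rose from 715, 1047 and 1350 to 2606, 2759 and 2337 (1.35 ± 0.23), and so did its antagonist gene Chrd (1286, 1212 and 1216 against 3572, 3620 and 2715; 1.40 ± 0.13). The BMP effector gene Smad9 fell by 2.09 ± 0.31 and the activin subunit gene Inhba by 1.05 ± 0.15.

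Foxo factors control protein breakdown and autophagy in muscle. Of 29 tested genes of that programme 14 rose and 1 fell, with a median of 0.51 (0.61 with the slide as a block, where 11 rose and 1 fell). Fbxo32, the ubiquitin ligase atrogin-1, went from 658, 821 and 640 to 1742, 2221 and 2005 (1.50 ± 0.15). The autophagosome gene Map1lc3a went from 28955, 41976 and 48191 to 172176, 164674 and 121702 (1.96 ± 0.22), and Pik3ip1, a brake on PI3-kinase, from 2568, 3546 and 3202 to 13765, 12213 and 9871 (1.94 ± 0.19). All 3 had day 2 arrays more than 2-fold above every proliferation array. Klf15, a metabolic regulator, rose by 1.21 ± 0.24, lost without non-uniform spots (adjusted p = 0.063). Trim63, the ligase MuRF1, rose by 1.07 ± 0.29 near background, a call lost without day 2 array 1 (adjusted p = 0.060). Foxo1 had no call (-0.11 ± 0.33), with day 2 array 1 at 5044 and arrays 2 and 3 at 2109 and 1925. Fbxo30, a further ubiquitin ligase gene, fell by 0.86 ± 0.18.

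Collagen genes had 10 rises and 3 falls among 19 tested (median 0.55; 8 and 0 with the slide as a block), other matrix genes 16 rises and 2 falls among 34 (median 0.63; 11 and 0), and proteases with their inhibitors 11 rises and 3 falls among 23 (median 0.55; 9 and 1). The small proteoglycan gene Dcn went from 6906, 7072 and 7285 to 32822, 24332 and 22559 (1.89 ± 0.19), and Prelp, of the same family, from 847, 693 and 780 to 3937, 4742 and 4403 (2.50 ± 0.14, adjusted p = 7.1e-06). Cilp, a secreted matrix protein that binds growth factors, had signals of 30.8, 6.97 and 13.4 and then 553, 423 and 292 (4.85 ± 0.44), with 2 of 3 proliferation arrays well above background.

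Col3a1 rose from 4897, 4390 and 4325 to 10972, 14628 and 10667 (1.40 ± 0.15), Col6a2 by 1.74 ± 0.16 and Col5a3 by 2.05 ± 0.22. Col1a1 had no call (-0.69 ± 0.46), with signals of 47223, 69041 and 96456 and then 73530, 28797 and 35438. Its day 2 array 1 lay inside the proliferation range and the other day 2 arrays below it. Col5a2 fell by 1.72 ± 0.42, not called with the slide blocked (adjusted p = 0.11) or with normexp (0.056). Among the proteases, the aggrecanase gene Adamts4 went from 1920, 2053 and 1906 to 6881, 6698 and 5085 (1.65 ± 0.16) and the gelatinase gene Mmp2 from 9579, 10085 and 14461 to 26314, 24159 and 19971 (1.06 ± 0.20; lost with normexp, adjusted p = 0.14). The metalloprotease inhibitor gene Timp1 fell by 0.64 ± 0.19, lost with the block (0.18) and when proliferation array 1 (0.076) or 2 (0.051) was left out, or day 2 array 2 (0.059) or 3 (0.074).

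Immediate early genes, the first to respond to serum, split by member: 11 of 33 rose and 8 fell (5 and 3 with the slide as a block), and the median of 0.09 was -0.09 with quantile normalization. Fos rose from 1311, 1623 and 1745 to 13615, 12566 and 10402 (2.97 ± 0.18, adjusted p = 7.4e-06), while its relative Fosl1 fell from 13401, 12195 and 19806 to 5741, 3451 and 6801, by 1.53 ± 0.27. Egr1 rose by 1.39 ± 0.45, but proliferation array 3 stood at 823 beside 2804 and 4049, and the call ended with the slide blocked (adjusted p = 0.22) and without day 2 array 1 (0.067), 2 (0.091) or 3 (0.081). Of the immediate early genes 33.3% rose and 24.2% fell, beside 21.1% and 12.8% of all tested genes. Among chemokine and interleukin genes 5 of 20 rose (25.0%) and 6 fell (30.0%). The myokine gene Il15 rose from 276, 378 and 357 to 1772, 2040 and 1470 (2.39 ± 0.21), and the neutrophil chemokine gene Cxcl5 fell by 1.84 ± 0.26. Ptgs2, the inducible cyclooxygenase, fell from 880, 904 and 909 to 215, 192 and 288, by 1.98 ± 0.25.

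Antioxidant genes had 6 rises and 10 falls among 32 tested (4 and 4 with the slide as a block), with a median of 0.02 that was -0.11 after quantile scaling, and -0.07 where the percentile came from probes detected on all 12 arrays. In the main fit 18.75% of the list rose and 31.25% fell, beside 21.1% and 12.8% of all tested genes. Hmox1, the haem oxygenase, fell from 34198, 41793 and 45812 to 19586, 15446 and 15938, by 1.25 ± 0.17. Nfe2l2, which encodes the NRF2 activator of such genes, fell by 0.89 ± 0.25, lost with the block (adjusted p = 0.29) and when either proliferation array 1 (0.079) or 2 (0.066), or either day 2 array 2 (0.074) or 3 (0.0635), was left out. Larger falls came from alpha-class glutathione transferases, Gsta2 (2518, 2050 and 1779 against 244, 127 and 124; 3.74 ± 0.24 lower on the log2 scale) and Gsta1 and Gm10639, which fell by 2.55 ± 0.17 and 2.69 ± 0.17. These 3 are near-identical copies whose probes may share targets, and are uncertain as separate measurements. Gstt1, a theta-class transferase, and Gstm7, of the mu class, rose by 1.59 ± 0.17 and 1.52 ± 0.17.

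Cornified envelope genes, which are known from skin, fell in 7 of 18 tested cases (40 on the list) and rose in 1, with a median of -0.44 (-0.56 and 4 falls with the slide as a block). Sprr2h, a small proline-rich protein, went from 499, 675 and 629 to 31.6, 24.1 and 51.4, a fall by 4.13 ± 0.34, and the late envelope gene Lce1i from 622, 864 and 1334 to 141, 32.2 and 60.5, a fall by 3.78 ± 0.47. Prr9, a proline-rich gene, fell by 3.28 ± 0.31. These genes belong to families of similar copies.

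Of 42 tested chromatin genes 10 rose and 8 fell (5 and 6 with the slide as a block), and the median of -0.08 was 0.02 with normexp. Of the 2 H3K27 methyltransferases, Ezh1 rose from 8482, 6835 and 8421 to 18950, 18387 and 18781 (1.25 ± 0.13), and Ezh2 fell from 25234, 26734 and 23847 to 16082, 19622 and 17933, by 0.50 ± 0.13; the Ezh2 call was lost without proliferation array 2 (adjusted p = 0.051), and also where probes of the gene were summarised by their median (0.070). Hmga2, an architectural protein of growing cells, fell from 63235, 56638 and 59034 to 17376, 19939 and 23997, by 1.56 ± 0.14. The deacetylase gene Hdac11 rose by 1.60 ± 0.18, and Sirt1, a further deacetylase, fell by 1.29 ± 0.29. Among replication-dependent histones 7 of 35 rose and 1 fell, with a median of 0.28. H1f1 rose from 121, 146 and 167 to 539, 506 and 546 (1.88 ± 0.16). The histone H2ac6 was below the detection limit on each proliferation array and was at 140, 21.5 and 17.2 at day 2, at least 2.64-fold higher, so its size rests on array 1. Of 18 imprinted genes 6 rose (33.3%) and 2 fell (11.1%). Mest, an alpha/beta hydrolase, was at 1.79 ± 0.36, and Plagl1, a zinc finger factor, was lower by 0.79 ± 0.13, that is at -0.79.

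**Figure D4:**
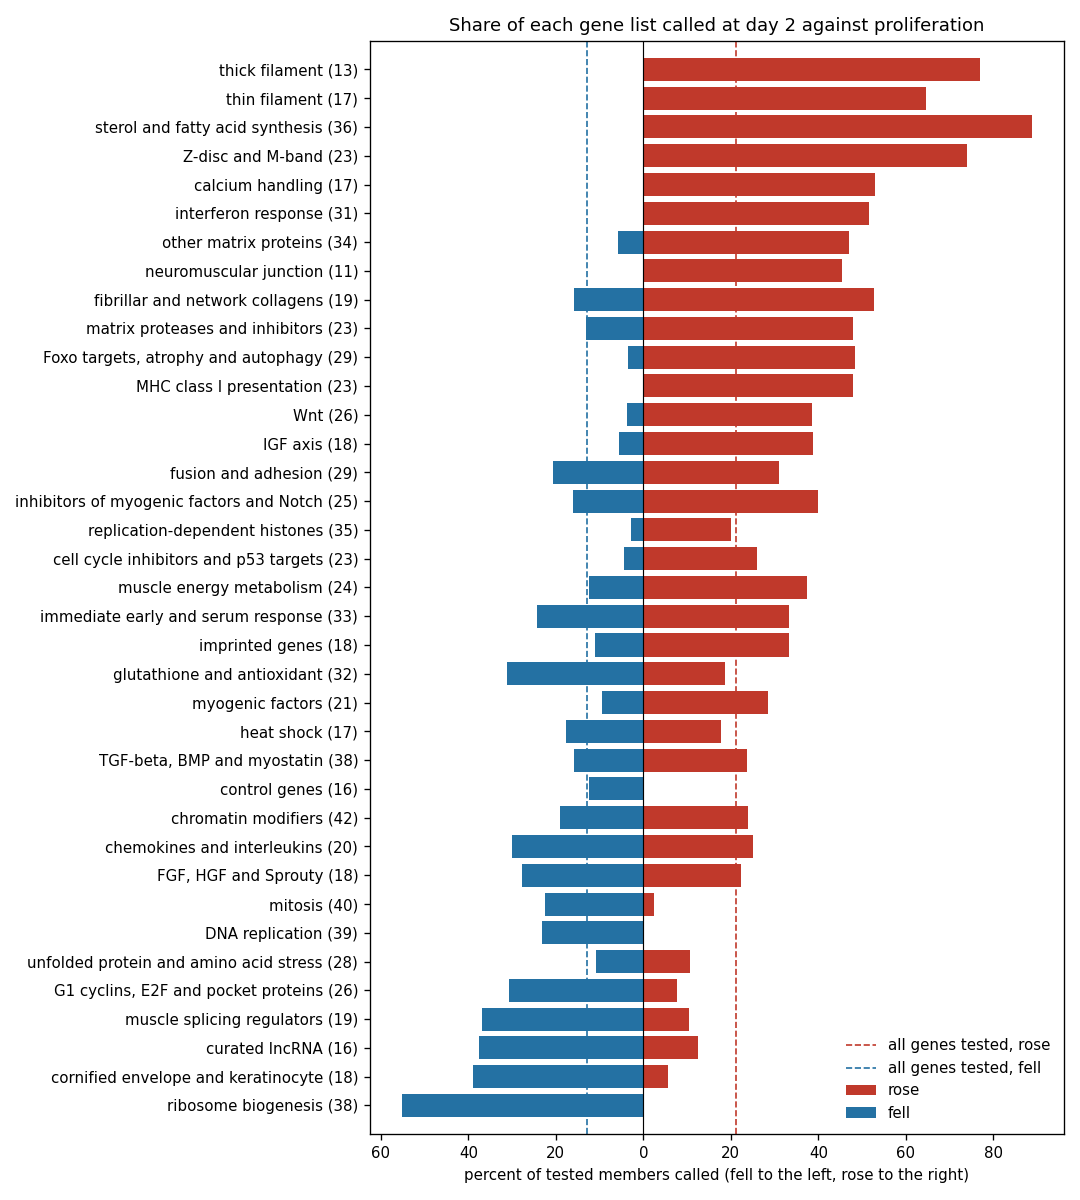
Percent of tested members of each gene list that rose (right, red) or fell (left, blue) at day 2, with the number tested in brackets and dashed lines for all 13314 tested genes (21.1% rose, 12.8% fell). Lists are ordered by their median change; sterol and fatty acid synthesis reaches furthest to the right (32 of 36) and ribosome biogenesis furthest to the left (21 of 38).

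**Figure D5:**
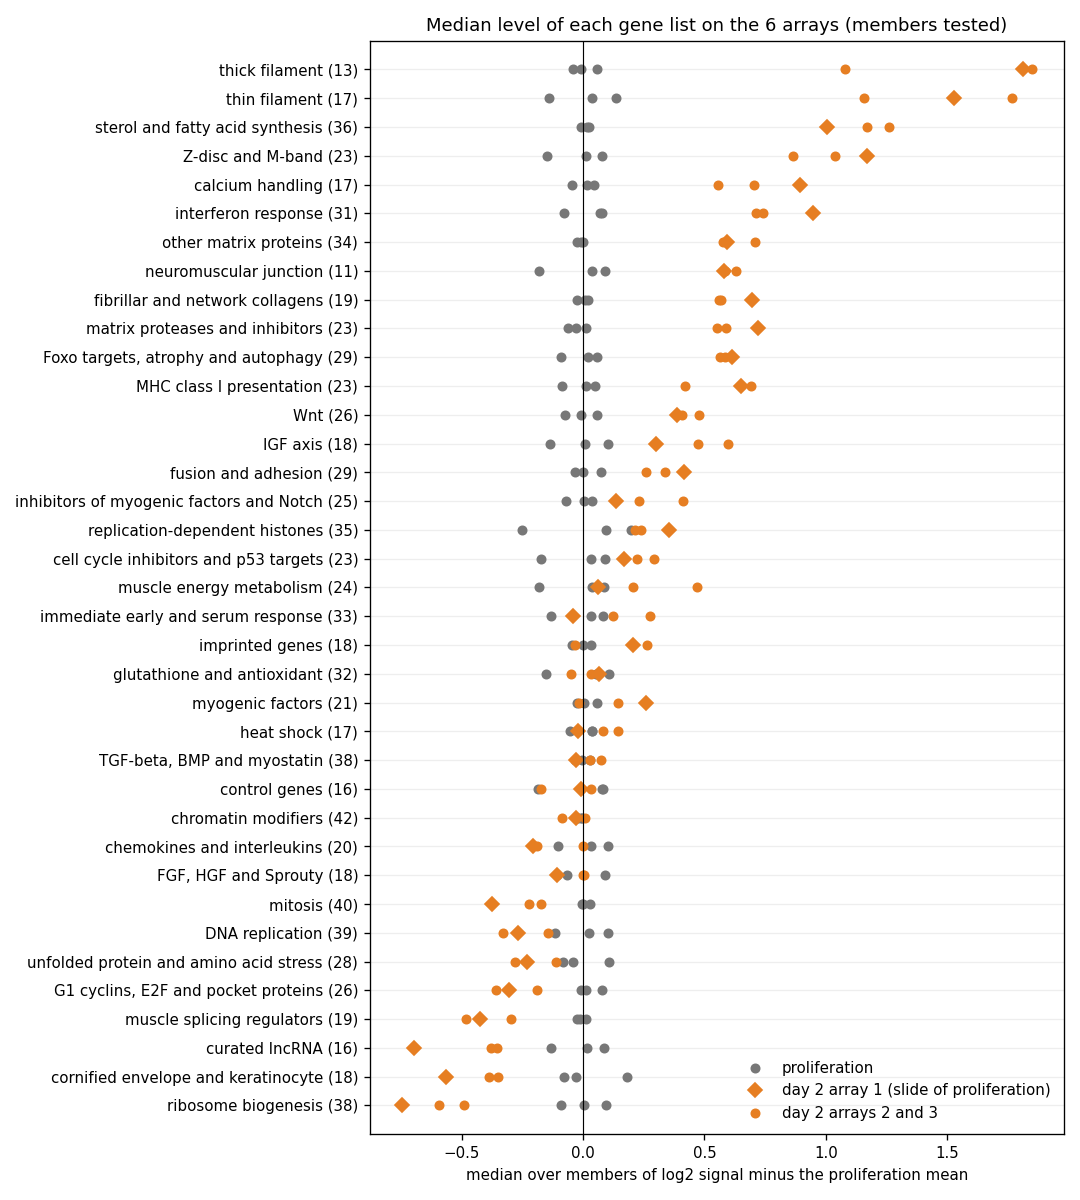
Median over the tested members of each list of the log2 signal minus the proliferation mean, on each of the 6 arrays (orange for day 2, with a diamond for the array that shares the proliferation slide, and grey for proliferation). For thick filament genes the day 2 arrays lie at 1.81, 1.85 and 1.08 and for ribosome biogenesis at -0.75, -0.59 and -0.49, while chromatin modifiers and control genes overlap with proliferation.

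The array was designed for long non-coding RNAs, so 6259 of the tested probes belonged to its non-coding set. Of these 842 rose and 837 fell (26.8% called), against 34.1% of the 15751 tested mRNA probes. That split moved with the scaling: 1397 rose and 510 fell with normexp, and 665 rose and 977 fell where the percentile came from probes detected on all 12 arrays. The set had lower signals. Over 4 equal classes of signal, from dim to bright, the called shares of the non-coding set were 19.2%, 29.7%, 35.5% and 33.4%, and those of mRNA probes 27.5%, 35.9%, 37.6% and 33.7%, so the gap was present in the dimmer classes and small in the brightest. By class, 345 rose and 485 fell among 3158 cDNA clones with AK accessions, 438 rose and 273 fell among 2525 UCSC transcripts, 19 rose and 29 fell among 182 curated non-coding RNAs, and 9 rose and 25 fell among 150 ultraconserved elements. The clone and UCSC transcripts are known here by accession, and nothing in the files shows that each is non-coding.

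Among named long non-coding RNAs 2 of 16 tested rose and 6 fell (1 and 5 with the slide as a block). Neat1, the scaffold of nuclear paraspeckles, went from 3171, 2997 and 1769 to 714, 1091 and 826, a fall by 1.57 ± 0.26. Malat1, a nuclear speckle RNA, went from 3199, 2655 and 2406 to 4342, 5054 and 4688 (0.78 ± 0.16), lost with the block (adjusted p = 0.081). Peg13, an imprinted RNA, rose by 0.97 ± 0.17. Among accession-only transcripts above background on all 6 arrays, uc008xvv went from 27.4, 35.1 and 36.0 to 165, 231 and 179 (2.54 ± 0.16), and AK046545 from 110, 92.2 and 91.4 to 479, 638 and 497 (2.45 ± 0.18). uc008kka, AK010243 and AK003243 rose by 2.34 ± 0.20, 2.40 ± 0.15 and 2.27 ± 0.24, and uc008gmk fell by 2.53 ± 0.43. AK053042 fell from 230, 186 and 218 to 29.8, 24.1 and 30.1, by 2.92 ± 0.32, with no overlap. BC010981 fell by 2.86 ± 0.55, but its day 2 array 1 stood at 106 beside 26.2 and 21.6, and the call ended with the slide blocked (-1.42, adjusted p = 0.0815). The falls of AK021102 by 2.78 ± 0.61 and AK083579 by 2.59 ± 0.75 likewise ended there (0.14 and 0.57), AK021102 with normexp too (0.056), and AK083579 when proliferation array 1 (0.065) or 3 (0.076) was left out, or day 2 array 2 (0.089) or 3 (0.085).

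A few genes crossed the detection limit. 127 probes were well above background on all 3 day 2 arrays and on no proliferation array, of which 88 were called, and 21 showed the reverse, all 21 called. The floor differed too, with negative-control medians of 6.25, 5.39 and 2.42 in proliferation and 3.53, 1.78 and 1.97 at day 2. Its part in these counts was not tested. For such probes the change is a lower bound, set against the lowest signal among probes well above background on each array or the probe's own. Gpr20, an orphan G protein-coupled receptor gene, was at 4.97, 4.88 and 5.95 and then at 223, 139 and 103, at least 10.4-fold higher. Cardiac troponin I (Tnni3) was at least 4.81-fold higher, the protease inhibitor gene Stfa3 at least 4.96-fold and the GDNF co-receptor gene Gfra1 at least 4.16-fold. Slc6a19, a neutral amino acid transporter, was at 394 on day 2 array 3 and at 18.1 on array 1, so that its bound of at least 3.64-fold rests on array 3; it was not called with the slide blocked (adjusted p = 0.22). In the other direction Dppa5a, a gene of pluripotent cells, went from 105, 82.9 and 56.4 to 7.46, 2.06 and 2.22, at least 8.43-fold lower, and the mitochondrial folate carrier gene Slc25a32 was at least 6.41-fold lower. The P450 gene Cyp1a1, the phosphodiesterase gene Pde3a and the G protein regulator gene Rgs4 were at least 4.32-fold, 4.05-fold and 4.04-fold lower. All 3 lost the call with normexp (adjusted p = 0.54, 0.26 and 0.43), and Pde3a and Rgs4 also with the slide blocked (0.10 and 0.063).

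Among genes above background on all 6 arrays, large rises outside the lists came from Pi16, a secreted peptidase inhibitor (186, 110 and 104 against 1327, 1722 and 1283; 3.48 ± 0.23), and Camk1g, a calmodulin-dependent kinase (166, 166 and 172 against 1499, 2284 and 1392; 3.32 ± 0.18). R3hdml, a secreted protein of the same superfamily as Pi16, rose by 3.10 ± 0.23, the retinol transporter gene Stra6 by 3.06 ± 0.21, Srpk3, a muscle kinase of SR proteins, by 2.94 ± 0.29, and the peptidase gene Xpnpep2 by 2.93 ± 0.15. Large falls outside the lists came from Serpinb2, a plasminogen activator inhibitor (2408, 3375 and 3370 against 318, 451 and 571; lower by 2.80 ± 0.23, that is at -2.80), and Havcr2, an immune checkpoint receptor, which fell by 2.61 ± 0.28. Vmn2r79, annotated as a pheromone receptor, fell by 2.69 ± 0.35. Hdgf, a growth factor of the nucleus, was uneven at 10569, 2139 and 5206 and then at 1744, 298 and 542; its fall by 2.90 ± 0.65 was not called with the slide blocked (adjusted p = 0.19). Frrs1, a ferric reductase, fell by 2.59 ± 0.50, with day 2 array 1 at 430 and arrays 2 and 3 at 94.9 and 76.5.

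Where these levels stood later in the course is given by the day 5 and day 8 arrays, which are compared with the same proliferation arrays and so share them. The median of the thick filament list was 1.64 at day 2, 5.85 at day 5 and 6.96 at day 8 above proliferation, and that of the thin filament list 1.57, 6.14 and 5.78. For sterol and fatty acid synthesis it was 1.14, 0.22 and 0.43, and 33 of the 36 members had a lower mean at day 5 than at day 2. For DNA replication it was -0.29, -1.93 and -2.56, for mitosis -0.25, -2.70 and -3.25, and for ribosome biogenesis -0.62, -0.77 and -1.08. For interferon-response genes it was 0.72, 0.64 and 0.64. Over all tested genes the medians were 0.099, -0.042 and -0.14. These later values are descriptions, with no test here.

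Markers of cell types other than muscle were set beside the muscle lists. Of 6 macrophage markers on the array, 2 were well above background on no array, and their summed signal was 145 to 287 in proliferation and 184 to 240 at day 2. The microglial and macrophage marker Aif1 rose (14.4, 12.7 and 24.6 against 66.9, 39.1 and 42.9; 1.54 ± 0.28), while Adgre1 and Itgam, which define macrophages, were not well above background on any array. All 6 endothelial markers were detected somewhere, with sums of 353 to 480 and then 1266 to 1709, which are mostly Tek (2.54 ± 0.17). Kdr, the VEGF receptor, went the other way and fell by 1.06 ± 0.26, not called with the slide blocked (adjusted p = 0.12) or with normexp (0.24). Epithelial sums were 404 to 416 and then 1137 to 1365, through Krt8 (1.94 ± 0.16) and the E-cadherin gene Cdh1 (1.51 ± 0.15), with Epcam and Krt18 not well above background on any array. Adipocyte sums were 7105 to 8668 and then 3959 to 5216, mostly Pparg, and Adipoq, Lep and Plin1 were at background throughout. Of 7 neural markers Tubb3, a neuronal tubulin, rose by 0.92 ± 0.19 and the neurofilament gene Nefm fell by 1.19 ± 0.20. The microtubule protein gene Map2 rose by 0.55 ± 0.15, not called with the slide blocked (adjusted p = 0.20), without day 2 array 2 (0.058) or without non-uniform spots (0.056). Sums of 8 osteoblast markers overlapped (206110 to 299588 and 227592 to 267393) and were mostly Spp1. Of the 6 osteoblast markers tested 0 rose and 1 fell. Smooth muscle sums were 62050 to 72980 and 83784 to 94295. The higher smooth muscle sum came from Smtn, a cytoskeletal protein, which rose by 0.78 ± 0.13. Tagln, an actin-binding protein, fell by 0.68 ± 0.18, a call that ended with the slide blocked (adjusted p = 0.17) and without day 2 array 2 (0.057), and Acta2, smooth muscle actin, had no call (-0.08). The part of other cell types in the results was not tested. Of 16 control genes 0 rose and Tfrc, the transferrin receptor (-0.97 ± 0.16), and Hprt, a purine salvage enzyme, fell; the Hprt call ended with the slide blocked (adjusted p = 0.20) and without any 1 of the 6 arrays (0.054 to 0.081). The median was -0.02.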

How the data were processed

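RNA of 3 proliferating and 3 day 2 cultures of C2C12 cells was measured on one-colour custom Agilent arrays: total RNA (1 µg) went into each Cy3 labelling, per the labels' protocols. Feature Extraction (version 10.5.1.1, by Agilent) is the scanner software that the submitters' processing notes name. The authors deposited each array's scanner output, in which the processed signal is a background-treated intensity in scanner units, per the file headers. No step between arrays is recorded there.

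Here log2 was taken of that intensity, replicate spots were averaged per probe after population outliers were left out (non-uniform spots were kept), and the 75th percentile of each array's 37831 non-control spots (37246 probes) was subtracted. A probe was tested when well above background on all 3 arrays of either stage. limma 3.58.1 (R 4.3.3) fitted 4 stage means over 12 arrays, with Benjamini-Hochberg adjusted p under 0.05, and the fit was tested on simulated data. Names came from RefSeq (GRCm38.p6) by accession. The array headers name mm9, so sequences were matched by symbol alone. A gene stands for its brightest tested probe. Bounds set the bright stage against the lowest detected signal of each dim array. Plots used matplotlib 3.10.9 (Python 3.11.15, pandas 2.3.3).

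Members, lists and the rule for named genes were chosen with earlier results of these data known. Named are the 12 largest called rises and falls of genes detected on all 6 arrays with the same sign within the shared slide, the 5 largest bounds each way, the 2 largest called changes each way of each list, a fixed set of regulators and the 5 largest non-coding changes each way. Other genes were picked for their role after their values were seen. Alternatives were quantile scaling, another percentile, normexp (offset 50), dim-probe filters, leaving out non-uniform spots, 6 arrays in the fit, slide and replicate blocks, each array left out, a 2-fold minimum and the median over probes. normexp used the median signal because no mean signal column is given in these files, a choice made after seeing them. Precision is limited by 3 arrays per stage, and day 5 and day 8 enter through the shared spread. A few genes that the lists and the naming rule include are counted but not reported here by name.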

Additional observations from a re-analysis of the deposited data

How the results depend on the processing

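Over all probes, the non-coding set and gene symbols, 7057, 1679 and 4518 changed. Without non-uniform spots, which leaves 13230 probes, these were 3418, 985 and 2066; with the slide as a block 3671, 900 and 2332, of which 3265 probes were called in the same direction in both fits; within the shared slide 3658, 851 and 2356; and with a minimum of 2-fold 2423, 669 and 1489. Leaving out 1 array gave 5165 to 6852, 1195 to 1631 and 3328 to 4383. Quantile scaling (7415 probes), a percentile taken only from probes detected on all 12 arrays (6977), normexp (7758), probes above background on all 6 arrays (6667), no dim-probe filter (4942), 6 arrays in the fit (5813) and the median over the probes of a gene (4864 genes) stayed within 1.5 times. normexp moved the median change of all probes from 0.07 to 0.19. The replicate block gave 6849 probes, 1695 of the non-coding set and 4335 genes. Same-numbered arrays did not deviate together (correlations -0.18, 0.019 and -0.030), and no array correlated best with its own number. With 3 arrays per stage, and day 2 array 1 on another slide than arrays 2 and 3, this check cannot exclude a pairing. Of 234 probes named or listed for naming, 215 were called and 161 kept the call with the slide as a block. H4c9, a histone at -0.73, turned to 0.11 under normexp (adjusted p = 0.60). Signal over background limits the dim probes: of the 22010 tested, 19916 were above it on all 6 arrays.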
